A study of Homo sapiens with 4 samples.

Results

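The genes described here code for secreted factors that act on blood vessels. They are the vascular endothelial growth factors VEGFA, VEGFB, VEGFC and PGF, the platelet-derived growth factors PDGFA, PDGFB and PDGFC, and the vasoactive or vascular factors ADM, ANGPTL4 and EDN1. They were picked from a list of gene symbols, not by a threshold on their measured values, but with earlier results of these data known. All 10 are among the 12912 genes of the count table. Each of the 10 symbols occurs there once.

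The table holds RNA-seq counts from 786-O, a clear cell renal cell carcinoma (ccRCC) line that lacks functional VHL. 786-O-Ctrl carries the VHL-null genotype, and 786-O-VHL had VHL restored with a retroviral vector for HA-tagged wild-type VHL. Both sublines also carry a stable triple-reporter vector (GFP, luciferase and thymidine kinase) and were grown in RPMI1640 with 10% FBS, with no other treatment named. Each group is 2 libraries of 1 subline, so a difference between the groups cannot be told apart from any other difference between these sublines.

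VHL is the substrate-binding subunit of a ubiquitin ligase that marks the hydroxylated alpha subunits of the hypoxia-inducible factors (HIF) for degradation. In ccRCC its loss leaves HIF active at normal oxygen, and VEGFA, PDGFB, ADM and ANGPTL4 are widely cited HIF targets in this tumor. The secreted factors act mainly on other cells, with VEGFs binding receptors on endothelium and PDGFs binding receptors on pericytes and fibroblasts.

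Of the control libraries, the deeper held 22141263 counts and the shallower 15714166, while 786-O-VHL replicates 1 and 2 held 2807779 and 16114120. At these depths 3 counts corresponded to between 0.142 and 1.02 CPM (counts in each 1000000 of the TMM-scaled library size), a floor that covers counting error only. VHL was measured at 42.9 and 43.9 CPM in 786-O-Ctrl and at 178 and 163 CPM in 786-O-VHL, in the direction the labels give, although the counts do not separate vector from endogenous transcript. Of the renal epithelial markers, 7 of 7 were measured, and their summed level was 2944 and 2932 CPM in 786-O-Ctrl against 1597 and 1571 CPM in 786-O-VHL. Most of that sum was VIM, which is also a mesenchymal marker, at 1668 and 1699 against 751 and 709 CPM. PAX8, PAX2 and KRT8 were called lower too, while KRT18 and LHX1 were not called (log2 fold change -0.12 and -0.18). Endothelial markers gave 4 of 9 in the table and summed to 7.07 and 7.04 CPM against 1.70 and 2.97 CPM, most of it TIE1. Fibroblast and pericyte markers gave 5 of 7 (23.2, 23.7, 29.2 and 30.5 CPM in the same library order) and leukocyte markers gave 1 of 6, CD14, at 1.02 CPM or less. The part of these shifts in the results on secreted factors was not tested. In such bulk RNA, fewer cells that express a gene and less of its RNA per cell cannot be told apart.

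Restoring VHL went with lower mRNA of 7 of the 10 factors and higher mRNA of 0, by edgeR's quasi-likelihood test at a false discovery rate (FDR) under 0.05. Over all 12335 genes tested, 31.9% were lower and 32.6% were higher by the same rule, so a call in either direction was common in these data. The median log2 fold change of the 10 factors was -0.48, against 0.017 for all genes tested. ADM, VEGFC, ANGPTL4 and PGF fell most, by a fitted 1.85-fold to 2.39-fold. VEGFA, the most abundant of them in CPM, did not pass the test. At a fold change over 4 with FDR under 0.01, a threshold that 4.46% of genes passed, 0 of the 10 factors were called.

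**Figure D1:**
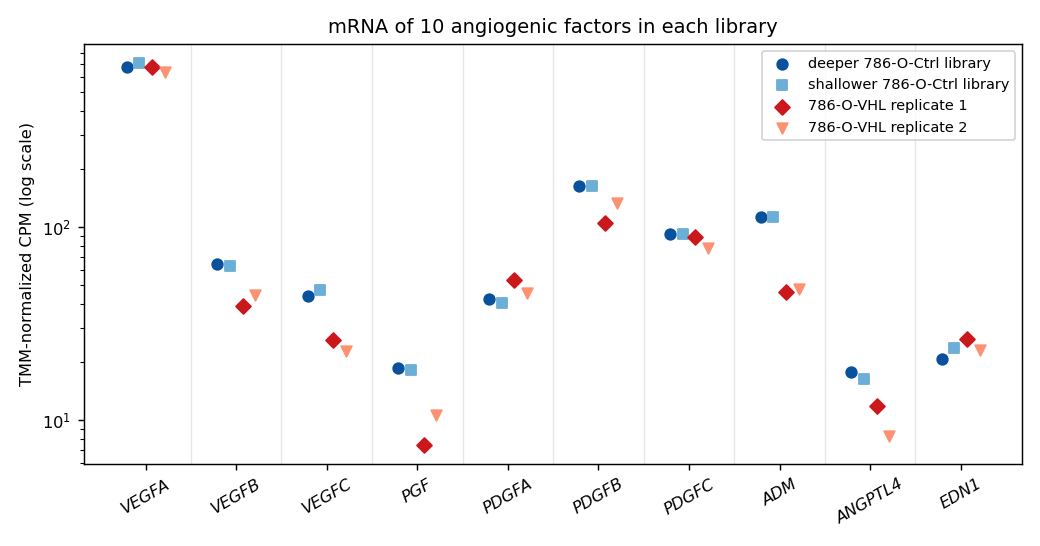
TMM-normalized CPM (log scale) of the 10 factors, with 1 symbol for each of the 4 libraries. ADM, VEGFC, PGF, ANGPTL4, VEGFB and PDGFB show both 786-O-VHL libraries (red) below both 786-O-Ctrl libraries (blue), while the EDN1 symbols are interleaved. VEGFA and PDGFC also lie below, with 786-O-VHL replicate 1 close to a control library, and PDGFA lies above. The share of all genes whose groups do not overlap was not counted. Such separation, here or in the text, is a description and does not set a factor apart from other genes.

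HIF recognizes a short DNA core, searched here as ACGTG and GCGTG on both strands (read on the opposite strand as CACGT and CACGC). RefSeq windows from 250 bases before to 50 bases after an annotated transcript start (GRCh38.p14) were given for 7 of the 10 factors, with 13 starts. VEGFA, PDGFB and PDGFC have no entry. Of the 13 windows, 11 held either core, against 48.4% of all 35116 windows of this length. PDGFA gave 4 of the 13 windows and EDN1 gave 3, so the windows are not separate genes. ACGTG alone was in 3 of the 13, for ANGPTL4 and EDN1, against 21.4% of all windows, and GCGTG was in 9 of the 13, against 36.5% of all windows. ACGTG is also a part of the E-box CACGTG, which other factors bind. The stretches below show 1 core for each of the 7 factors with a window, whether or not the factor was called lower. Each is written 5′ to 3′ along the gene's own strand, with the core in capitals, and stands for 1 core of that gene.
ADM, chr11:10304957-10304991, plus strand: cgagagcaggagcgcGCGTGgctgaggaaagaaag
VEGFC, chr4:176792962-176792996, minus strand: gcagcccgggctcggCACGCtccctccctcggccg
ANGPTL4, chr19:8363906-8363940, plus strand: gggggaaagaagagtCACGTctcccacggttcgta
PGF, chr14:74955740-74955774, minus strand: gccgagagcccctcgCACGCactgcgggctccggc
VEGFB, chr11:64234508-64234542, plus strand: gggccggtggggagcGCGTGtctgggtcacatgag
PDGFA, chr7:520013-520047, minus strand: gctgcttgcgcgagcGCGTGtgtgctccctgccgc
EDN1, chr6:12290223-12290257, plus strand: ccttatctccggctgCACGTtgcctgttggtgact
A match says only that these letters stand in the window. The core lay 101 bases before the start in ADM, 59 in VEGFC, 234 in ANGPTL4, 162 in PGF, 61 in VEGFB, 186 in PDGFA and 123 in EDN1, from the core's first base in the order printed. All 7 factors with a window held a core in at least 1 window. The share of all genes that do so was not counted, and a gene with more starts has more windows to hold one. Whether the cores are more common in these factors, or bear on any change, was not tested.

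Among the VEGF ligands, 3 of 4 were lower in 786-O-VHL and the median log2 fold change was -0.73. VEGFA (ENSG00000112715.21, chr6:43737921-43754224, plus strand, GRCh37), the main endothelial mitogen that acts through KDR, was counted at 677 and 711 CPM in 786-O-Ctrl and at 675 and 639 CPM in 786-O-VHL. The groups did not overlap, but the deeper 786-O-Ctrl library and 786-O-VHL replicate 1 were less than 2 CPM apart. The log2 fold change was -0.082 (SE 0.0609, edgeR FDR 0.243), and its 95% interval allowed a 786-O-VHL level between 0.866 and 1.03 times that of 786-O-Ctrl. With library totals alone as scaling the sign turned (0.052, edgeR FDR 0.46), and without 786-O-VHL replicate 1 the gene was called lower (-0.12, edgeR FDR 0.0163). An antisense gene overlaps VEGFA exons, and whether the counting used strand is not given in the sources used here.

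VEGFC (ENSG00000150630.4, chr4:177604689-177714076, minus strand), the lymphatic growth factor, was counted at 44.1 and 47.2 CPM in 786-O-Ctrl and at 26.1 and 22.7 CPM in 786-O-VHL. Both 786-O-VHL libraries were below both 786-O-Ctrl libraries, and the means were 45.6 ± 2.17 and 24.4 ± 2.39 CPM (SD, n = 2 each). The level was 1.94-fold lower (log2 fold change -0.96, SE 0.103, edgeR FDR 4.16e-09). PGF (ENSG00000119630.14, chr14:75408537-75422329, minus strand), placental growth factor, which binds FLT1 alone among the VEGF tyrosine kinase receptors, was counted at 18.7 and 18.2 CPM against 7.46 and 10.6 CPM. These groups did not overlap either, but the lowest value rests on 22 counts. PGF was 1.85-fold lower (log2 fold change -0.89, SE 0.152, edgeR FDR 1e-05).

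VEGFB (ENSG00000173511.9, chr11:64002056-64006736, plus strand), a weak angiogenic factor that also binds FLT1, was counted at 64.8 and 63.1 CPM in 786-O-Ctrl and at 39.0 and 44.3 CPM in 786-O-VHL. The groups were separate, with means of 63.9 ± 1.16 and 41.7 ± 3.78 CPM (SD, n = 2 each) and a log2 fold change of -0.57 (SE 0.0821, edgeR FDR 7.33e-07). VEGFB, VEGFC and PGF were called lower under all 11 alternative settings.

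The VEGF ligands made up different shares of their summed mRNA in the sublines. Counted per kilobase of all annotated exons, VEGFA was 47.0% and 48.1% of the summed VEGF ligand level in 786-O-Ctrl against 60.1% and 57.3% with VHL restored. The exons of VEGFA span 14.4 kb in all but 3.61 kb in the canonical transcript, and per kilobase of canonical transcript, a length chosen after the data were seen, its share was 73.9% and 74.8% against 83.3% and 81.3%. By either length both 786-O-VHL libraries had the higher share. By canonical transcript VEGFC went from 7.69% and 7.92% to 5.14% and 4.62%, and PGF from 4.23% and 3.98% to 1.91% and 2.79%. Shares are within a library and do not depend on its scaling, and no test was run on them. An exact two-sided permutation test of 2 against 2 libraries cannot give a p under 0.333.

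**Figure D2:**
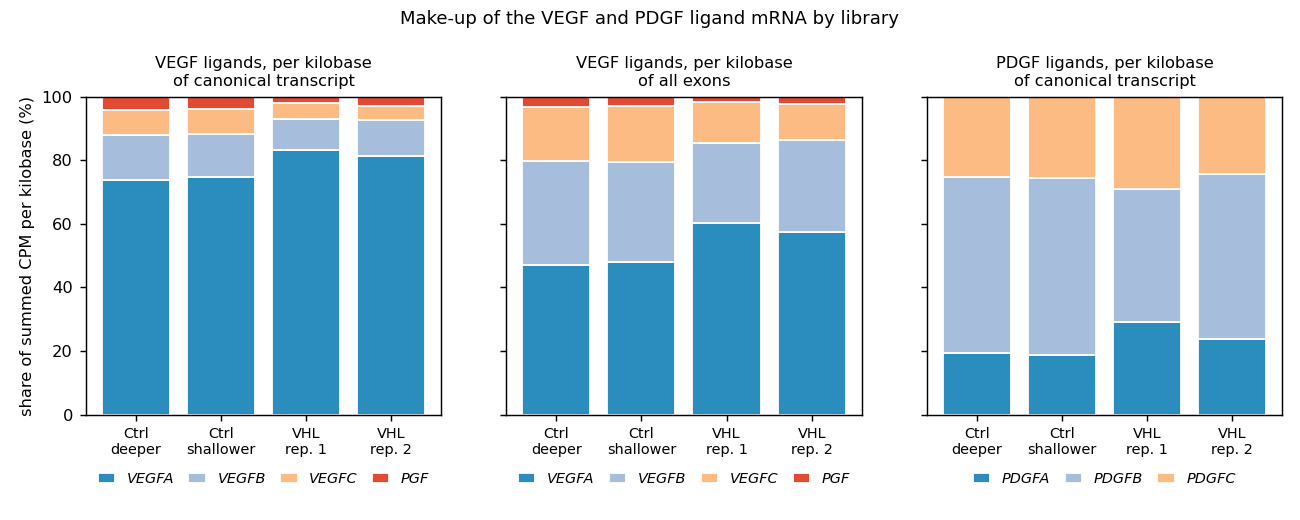
Share of each ligand (%) in the summed CPM per kilobase of the VEGF ligands (left and middle, by canonical transcript and by all exons) and of the PDGF ligands (right, by canonical transcript), 1 bar per library. VEGFA takes a larger share in both 786-O-VHL libraries by either length (83.3% and 81.3% against 73.9% and 74.8% by canonical transcript), and PDGFB takes a smaller one.

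Among the PDGF ligands, 2 of 3 were called lower, and the median log2 fold change was -0.18. PDGFB (ENSG00000100311.16, chr22:39619364-39640987, minus strand), the ligand that recruits pericytes through PDGFRB, was counted at 163 and 165 CPM in 786-O-Ctrl and at 105 and 134 CPM in 786-O-VHL. Both 786-O-VHL libraries were lower, with replicate 1 well under replicate 2. PDGFB was 1.31-fold lower (log2 fold change -0.39, SE 0.0753, edgeR FDR 5.38e-05). The call held under all 11 alternatives, with values between -0.64 (without 786-O-VHL replicate 2, edgeR FDR 5.83e-07) and -0.26 (library totals alone, edgeR FDR 0.00347).

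PDGFC (ENSG00000145431.11, chr4:157681606-157892951, minus strand), a ligand secreted in a latent form that proteases such as tPA cut, was counted at 92.2 CPM in both 786-O-Ctrl libraries and at 89.5 and 78.0 CPM in 786-O-VHL. The groups did not overlap, but 786-O-VHL replicate 1 was close to the control level. The log2 fold change was -0.18 (SE 0.0727, edgeR FDR 0.0293), and the call was lost in 6 of 11 alternatives, among them DESeq2 (adjusted p = 0.197). It was also lost without 786-O-VHL replicate 2 (-0.048, edgeR FDR 0.716) and when either 786-O-Ctrl library was left out, the deeper or the shallower (-0.17 each, edgeR FDR 0.212 and 0.195). PDGFA (ENSG00000197461.13, chr7:536895-559933, minus strand), a ligand of PDGFRA, was counted at 42.4 and 40.5 CPM against 53.6 and 45.8 CPM. Both 786-O-VHL libraries were above both controls. Its log2 fold change was 0.20 (SE 0.0901, 95% interval 0.017 to 0.39, edgeR FDR 0.0517), and 4 of 11 alternatives called it higher, among them the fit without 786-O-VHL replicate 2 (0.36, edgeR FDR 0.025).

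As shares of the PDGF ligand level per kilobase of canonical transcript, PDGFB went from 55.1% and 55.8% in 786-O-Ctrl to 42.0% and 51.6% in 786-O-VHL. PDGFA went from 19.5% and 18.7% to 29.0% and 23.9%. The PDGFC shares overlapped between the groups, at 25.4% and 25.5% against 29.1% and 24.5%.

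Of the other secreted factors, ADM and ANGPTL4 were lower and EDN1 was not called. ADM (ENSG00000148926.10, chr11:10326620-10328944, plus strand) codes for adrenomedullin, a vasodilator peptide. It was counted at 114 and 113 CPM in 786-O-Ctrl and at 46.1 and 48.0 CPM in 786-O-VHL. The libraries of each group were close together and the groups far apart, with means of 113 ± 0.102 and 47.1 ± 1.35 CPM (SD, n = 2 each). ADM was 2.39-fold lower (log2 fold change -1.25, SE 0.0739, edgeR FDR 1.47e-14), the largest change among the 10 factors, and stayed between -1.30 and -1.12 over 11 alternatives.

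ANGPTL4 (ENSG00000167772.12, chr19:8428173-8439254, plus strand), a secreted inhibitor of lipoprotein lipase that also acts on vessels, was counted at 17.9 and 16.4 CPM against 11.9 and 8.25 CPM. Both 786-O-VHL libraries were lower, and ANGPTL4 was 1.91-fold lower (log2 fold change -0.94, SE 0.163, edgeR FDR 1.34e-05). Replicate 1 of 786-O-VHL held 35 counts of this gene, and without replicate 2 the value was -0.54 and no longer called (edgeR FDR 0.0731). EDN1 (ENSG00000078401.7, chr6:12290594-12297427, plus strand), the vasoconstrictor peptide endothelin-1, was counted at 20.8 and 23.5 CPM in 786-O-Ctrl and at 26.5 and 23.0 CPM in 786-O-VHL. The groups overlapped. Its log2 fold change was 0.11 (SE 0.121, 95% interval -0.14 to 0.36, edgeR FDR 0.44), and 0 of 11 alternatives called it.

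**Figure D3:**
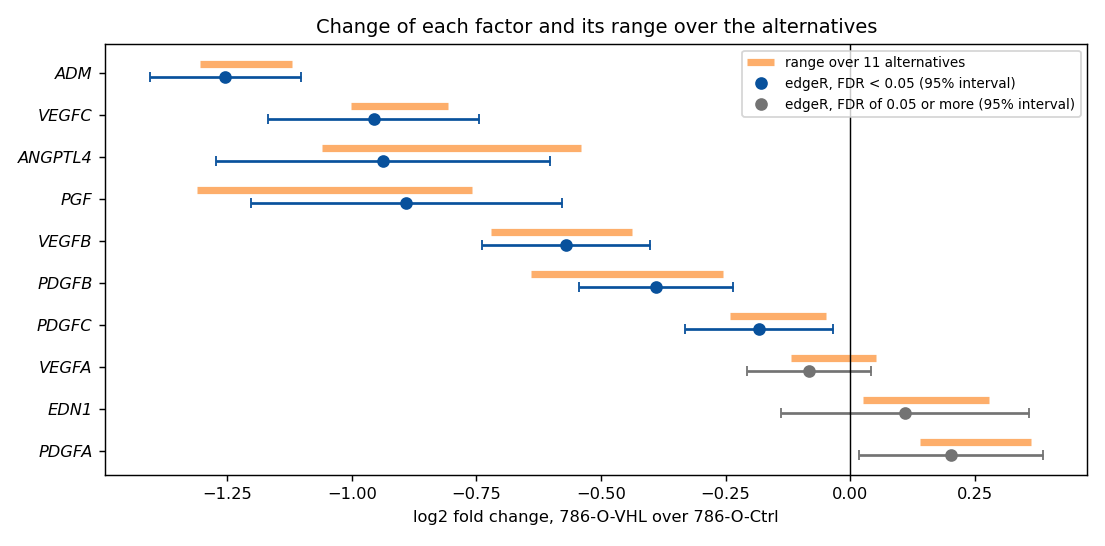
Log2 fold change of each factor, 786-O-VHL over 786-O-Ctrl (points, edgeR, with 95% intervals; blue for FDR under 0.05), and above each point the range of the value over 11 alternative settings (orange). The range crosses 0 for VEGFA, from -0.12 to 0.052, while ADM stays between -1.30 and -1.12.

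Ratios between factors in the same library do not depend on how libraries are scaled. For every 100 counts of VEGFA, ADM gave 16.8 and 16.0 counts in 786-O-Ctrl against 6.83 and 7.52 with VHL restored. VEGFC gave 6.52 and 6.64 against 3.87 and 3.56 counts on the same measure, and PGF gave 2.76 and 2.56 against 1.10 and 1.65. These 3 factors were lower relative to VEGFA in both 786-O-VHL libraries. PDGFC gave 13.6 and 13.0 against 13.3 and 12.2 counts and EDN1 gave 3.07 and 3.31 against 3.92 and 3.60. PDGFC overlapped between the groups on this measure, whereas EDN1 and PDGFA (6.26 and 5.69 against 7.94 and 7.17 counts) were higher relative to VEGFA in both 786-O-VHL libraries.

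The order of the factors was set by mean CPM per kilobase of all exons. In 786-O-Ctrl it was ADM (48.8), VEGFA (48.1), PDGFB (41.1), VEGFB (32.5), VEGFC (17.4), PDGFC (15.4), EDN1 (10.9), PDGFA (9.03), ANGPTL4 (6.92) and PGF (3.18), and of these neighbours only ADM and VEGFA overlapped. In 786-O-VHL it was VEGFA (45.5), PDGFB (30.04), VEGFB (21.2), ADM (20.2), PDGFC (13.97), EDN1 (12.1), PDGFA (10.8), VEGFC (9.33), ANGPTL4 (4.07) and PGF (1.55), with overlap between VEGFB and ADM and between EDN1 and PDGFA. ADM thus went from level with VEGFA to below PDGFB, and VEGFC from above PDGFC to below PDGFA, although by the longest and by the canonical transcript VEGFC and PDGFC overlapped in 786-O-Ctrl. Per kilobase of canonical transcript VEGFA led both orders, at 192 ± 6.62 in 786-O-Ctrl against 182 ± 7.13 with VHL restored (SD, n = 2 each), with ADM next in 786-O-Ctrl (76.1) and overlapping PDGFB in 786-O-VHL (31.6 and 32.2). By that length VEGFA lay at the percentile 97.2 to 97.7 of all genes in each library, and ADM went from 92.1 in both 786-O-Ctrl libraries to 81.8 and 82.2 in 786-O-VHL.

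Other genes of the pathway were taken from lists by role. Of 69 genes listed, 45 were in the count table and 41 were tested, of which 18 were lower, 13 were higher and 10 were not called, with a median log2 fold change of -0.097. By the same rule 31.9% of all genes tested were lower and 32.6% were higher, so the share called higher was near that of all genes. Past the fold change of 4 were 5 of them, a threshold that 4.46% of all genes tested passed: PDGFRL, CALCRL, MME, APLN and CXCL8. PDGFRL passed the low-count filter only through its 786-O-Ctrl level and CALCRL only through its 786-O-VHL level. The same held for ADM5 and FGF1 through 786-O-Ctrl and for ANGPT4 through 786-O-VHL, though these did not pass the fold change of 4. The filter thus favoured the direction of these calls. They are included in full in the counts given here and are weak evidence there.

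The ligand list held further members of the same families, and 5 of 16 were tested. EDN2, endothelin-2, was counted at 11.5 and 10.6 CPM in 786-O-Ctrl and at 2.03 and 4.69 CPM in 786-O-VHL (log2 fold change -1.40, SE 0.219, edgeR FDR 2.65e-06). Without 786-O-VHL replicate 2 the EDN2 value was -2.45 (edgeR FDR 5.71e-05). ADM2, intermedin, a relative of adrenomedullin, rose from 29.3 and 39.8 to 64.8 and 66.6 CPM (0.95, SE 0.103, edgeR FDR 4.15e-09), while ADM5 fell, on 1 and 11 counts in 786-O-VHL (-1.38, edgeR FDR 0.0174). ANGPTL2, an angiopoietin-like factor, rose from 1.71 and 1.66 to 4.75 and 5.28 CPM (1.61, edgeR FDR 2.63e-05), and ANGPT4, a TEK ligand, was called higher on 12 and 5 against 3 and 27 counts (edgeR FDR 0.00627). ANGPT4 passed the low-count filter only through its 786-O-VHL level and ADM5 only through its 786-O-Ctrl level, which favoured the direction of each call. The ADM5 and ANGPT4 calls were lost with DESeq2 (adjusted p = 0.161 and 0.153), without 786-O-VHL replicate 2 (edgeR FDR 0.146 and 0.468) and without the shallower 786-O-Ctrl library (edgeR FDR 0.0613 and 0.087), and that of ADM5 also without the deeper one (edgeR FDR 0.106). In the adrenomedullin, endothelin and angiopoietin-like families, members measured in these libraries thus went both ways or differed in their calls. VEGFD, PDGFD, EDN3, ANGPT1, ANGPT2 and several ANGPTL genes were not analysed here.

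Receptors of the factors were mostly low or not analysed here. FLT1, FLT4, PDGFRA, RAMP1, RAMP2, RAMP3, EDNRA and EDNRB were among the latter, and KDR, the main VEGFA receptor, had 7 and 3 counts in 786-O-Ctrl against 0 and 6 with VHL restored, too few to test. The coreceptors were abundant. NRP2, which binds VEGFC, fell from 531 and 529 CPM to 283 and 307 CPM (log2 fold change -0.83, SE 0.0633, edgeR FDR 3.35e-12). NRP1, which binds VEGFA, was at 303 and 307 against 293 and 281 CPM (-0.095, edgeR FDR 0.184) and turned sign with library totals alone (0.039, edgeR FDR 0.596). Without 786-O-VHL replicate 1 NRP1 was called lower (-0.12, edgeR FDR 0.0236). NRP2 was lower, as VEGFC and 31.9% of all genes tested were, and NRP1, like VEGFA, was not called in the main fit. Whether ligands and coreceptors changed together was not tested. PDGFRB was at 3.28 and 4.25 against 5.77 and 6.12 CPM (0.70, SE 0.247, edgeR FDR 0.0147), a call lost in 4 of 11 alternatives, among them the fits without the deeper 786-O-Ctrl library (edgeR FDR 0.242) and without 786-O-VHL replicate 2 (edgeR FDR 0.248). TIE1, an orphan receptor of the angiopoietin system, fell from 5.89 and 5.71 to 1.02 and 1.96 CPM (-1.69, edgeR FDR 1.41e-05), the lower value resting on 3 counts. Without 786-O-VHL replicate 2 the TIE1 value was -2.51 (edgeR FDR 0.00192). CALCRL, the adrenomedullin receptor, was called higher on 3 and 2 against 3 and 12 counts (edgeR FDR 0.00732), and PDGFRL, a receptor-like protein, was called lower on 37 and 11 against 0 and 1 counts (edgeR FDR 0.000202). The CALCRL call was lost without the deeper 786-O-Ctrl library (edgeR FDR 0.0717) and with DESeq2 (adjusted p = 0.086), and that of PDGFRL without 786-O-VHL replicate 2 (edgeR FDR 0.0686).

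Of the enzymes that mature or degrade the factors, 8 of 11 were lower, 0 were higher and 3 were not called, with a median log2 fold change of -0.61. Among all genes tested 31.9% were lower and 32.6% were higher. ADAMTS3 (log2 fold change -0.58) and its cofactor CCBE1 (-0.61), which cut pro-VEGFC, and the proprotein convertases FURIN (-0.44) and PCSK7 (-0.90) were called lower. CCBE1 was counted at 125 and 130 CPM in 786-O-Ctrl and at 78.0 and 86.0 CPM in 786-O-VHL. PAM, which amidates adrenomedullin, was at 332 and 329 against 218 and 196 CPM (-0.69, SE 0.0657, edgeR FDR 3.39e-10). ECE1, the endothelin-converting enzyme, was at 732 and 709 against 459 and 478 CPM (-0.62, SE 0.0608, edgeR FDR 7.14e-10), a change that EDN1 itself did not show. PLAT, the protease tPA that activates PDGFC, was at 9.26 and 10.4 against 3.39 and 4.69 CPM (-1.14, SE 0.211, edgeR FDR 3.21e-05). The largest change was in MME, neprilysin, which degrades adrenomedullin and endothelin peptides, from 33.2 and 36.6 to 1.70 and 1.66 CPM (-4.38, SE 0.191, edgeR FDR 1.88e-17). The 3 that were not called are proteases on the activating side, PLAU at 177 and 178 against 168 and 183 CPM, PCSK5 (0.17, edgeR FDR 0.321) and PCSK6 (0.55, edgeR FDR 0.325).

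Other angiogenic factors moved in both directions, with 3 of 11 lower, 5 higher and 3 not called. The shares of all genes tested were 31.9% lower and 32.6% higher. APLN, the peptide apelin, fell from 22.2 and 24.3 to 0.678 and 2.79 CPM (log2 fold change -3.24, SE 0.212, edgeR FDR 1.39e-13), on 2 and 47 counts in 786-O-VHL. Without 786-O-VHL replicate 2 the APLN value was -5.08 (edgeR FDR 1.98e-09). CXCL8, the chemokine interleukin-8, fell from 78.1 and 91.4 to 13.6 and 11.04 CPM (-2.88, SE 0.113, edgeR FDR 1.91e-18). Both changed more than any of the 10 factors. The low-count filter passed FGF1 only through its 786-O-Ctrl level, which favoured a lower call. FGF1 fell on 51 and 33 against 3 and 9 counts (-1.90, edgeR FDR 0.000769), and without 786-O-VHL replicate 2 its call was lost (-1.19, edgeR FDR 0.239). FGF2, basic fibroblast growth factor, rose instead, from 102 and 101 to 342 and 378 CPM (1.84, SE 0.0664, edgeR FDR 2.86e-19), although other genes overlap its exons on both strands and part of the counts may be theirs. CCN1, a matrix-bound factor, rose from 781 and 799 to 1227 and 1473 CPM (0.78, edgeR FDR 6.63e-11). TYMP was called higher at 8.59 and 10.6 against 11.2 and 13.1 CPM (edgeR FDR 0.0347), in a region shared with 2 genes on the same strand, a call lost without the deeper 786-O-Ctrl library (edgeR FDR 0.409) and without 786-O-VHL replicate 2 (edgeR FDR 0.541).

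Of the inhibitors of angiogenesis, 2 of 8 were lower, 3 were higher and 3 were not called, beside 31.9% lower and 32.6% higher of all genes. THBS1, thrombospondin-1, rose from 964 and 954 to 1897 and 2143 CPM (log2 fold change 1.08, SE 0.0629, edgeR FDR 1.16e-14). COL18A1, the source of endostatin, rose from 643 and 621 to 1166 and 1073 CPM (0.82, SE 0.0613, edgeR FDR 2.37e-12). VASH1, vasohibin-1, rose from 4.04 and 2.53 to 8.82 and 8.61 CPM (1.36, SE 0.241, edgeR FDR 1.62e-05), while SVBP, the protein that binds it, was at 5.79 and 6.31 against 4.07 and 3.98 CPM (-0.59, edgeR FDR 0.0331), a call lost in 6 of 11 alternatives, the fits without the deeper 786-O-Ctrl, the shallower 786-O-Ctrl and the second 786-O-VHL library among them (edgeR FDR 0.11, 0.188 and 0.286). Other genes overlap the VASH1 exons, 1 on the same strand and 2 on the opposite one, so part of its counts may be theirs. SPARC, a matrix protein that binds PDGF and VEGF, fell from 871 and 850 to 661 and 523 CPM (-0.56, SE 0.0745, edgeR FDR 2.08e-07).

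**Figure D4:**
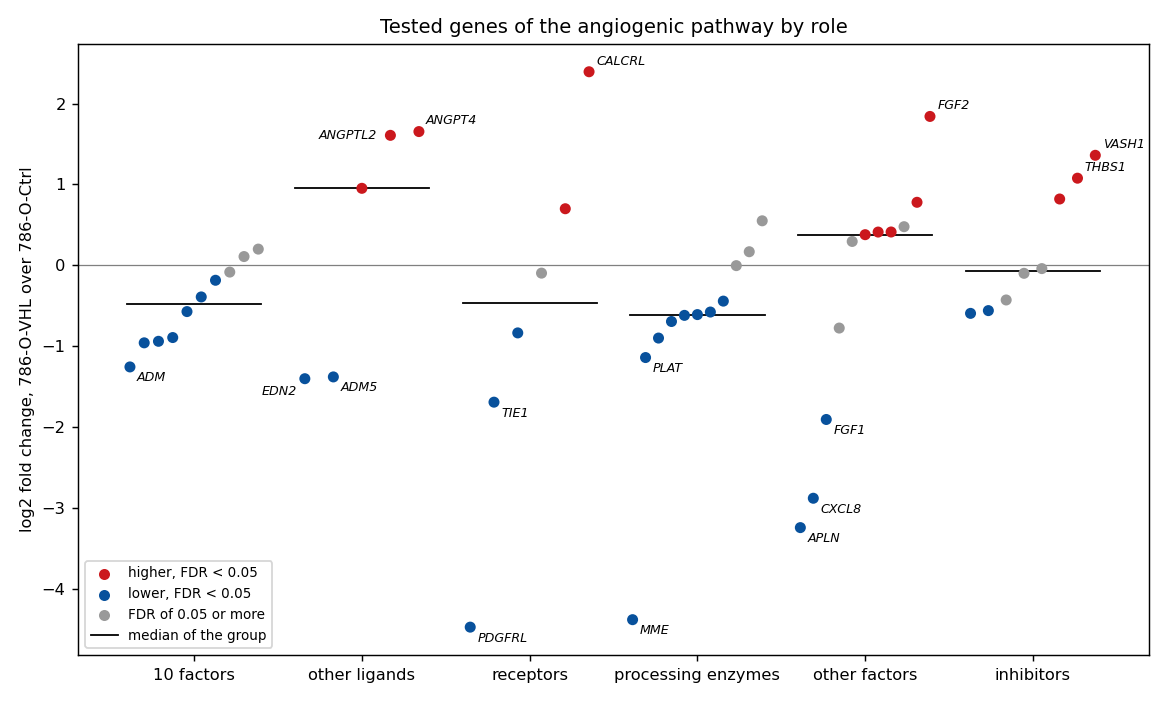
Log2 fold change of each tested gene, 786-O-VHL over 786-O-Ctrl, for the 10 factors and for the other lists by role, with the group median as a line and names for called genes beyond 1 in either direction. Processing enzymes lie mostly below 0 (median -0.61), while the other ligands, the other factors and the inhibitors hold called genes on both sides.

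The transcripts of the HIF alpha subunits were higher in 786-O-VHL, where VHL acts on the proteins. EPAS1, which codes for HIF-2α, was at 318 and 330 CPM in 786-O-Ctrl and at 813 and 856 CPM in 786-O-VHL (log2 fold change 1.37, SE 0.0613, edgeR FDR 3.22e-17). HIF1A was at 116 and 114 against 303 and 286 CPM (1.35, SE 0.064, edgeR FDR 1.18e-16). ARNT, the shared partner subunit, was at 47.7 and 45.8 against 36.97 and 42.98 CPM (-0.17, edgeR FDR 0.0901), and it was called lower without 786-O-VHL replicate 2 (-0.35, edgeR FDR 0.0471). Other genes overlap the HIF1A exons, 1 on the same strand and 2 on the opposite one, so part of its counts may be theirs, and 786-O is known to make no functional HIF-1α protein. HIF protein was not measured in these files.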

How the data were processed

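Total RNA of both sublines, in duplicate, was made into libraries with an Illumina TruSeq kit. The authors aligned reads to hg19 and deposited raw counts per gene for 4 libraries. The submitters' processing notes name CASAVA and STAR, while the program that counted reads, its strand setting and its gene models are not given in the sources. Both 786-O-Ctrl columns carry the same replicate number, so those libraries are named by depth.

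The test was run in R 4.3.3 with edgeR 4.0.16 (TMM, filterByExpr at a minimum count of 10, glmQLFit and glmQLFTest, group as the only term). Of 12912 genes 577 were removed, and p-values were adjusted by Benjamini-Hochberg over the remaining 12335. The labels do not say that replicates are separate cultures, so p-values measure the spread between these libraries, which may be technical. Replicates differed by more than sampling noise (chi-square per degree of freedom 2.22 for 786-O-Ctrl, 2.72 for 786-O-VHL). The script was tested on simulated data.

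CPM per kilobase used exon lengths from GENCODE v44 lifted to GRCh37, which matched 12749 identifiers. The factors and lists were chosen with earlier results of these data known. Named genes are the 10 factors, their receptors, at most 3 genes per list and direction by size of change at FDR under 0.05, VHL and the HIF subunits. CCBE1, ADAMTS3, FURIN, PAM, ECE1, PLAU, PCSK5, PCSK6 and renal markers were named in addition, after their values were seen. The 11 alternatives were RLE factors, library totals alone, DESeq2 1.42.0, limma-voom 3.58.1, no low-count filter, a minimum of 10 counts per library, thinning to the shallowest library and leaving out each of the 4 libraries.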

Additional observations from a re-analysis of the deposited data

How the results depend on the processing

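Of 110 member values (10 factors under 11 alternatives), 97 kept their direction and their side of the threshold, 7 lost a call, 5 gained one and 1 reversed. ADM, VEGFB, VEGFC, PGF and PDGFB were called lower under all 11. The count of factors called lower was between 5 and 8 of 10 when 1 library was left out, and the count called higher, 0 in the main analysis, was 1 (PDGFA) with library totals alone, with a minimum of 10 counts per library and after thinning, and 0 to 1 with 1 library left out. Library totals alone moved the median log2 fold change of all genes by 0.13 and made 37.9% rather than 49.5% of calls lower. With them VEGFA reversed to 0.052 and NRP1 to 0.039. Of the other pathway genes, 18 were lower and 13 higher. The count of lower ones was 11 with at least 10 counts in every library, where fewer genes were tested. The count of higher ones was 8 with DESeq2, 8 after thinning, and 8 to 13 with 1 library left out, 8 without 786-O-VHL replicate 2, and the cause was not tested. A library left alone in its group is assumed to vary like the other group. No paired analysis was possible because both 786-O-Ctrl columns carry the same replicate number. The shallowest library, 786-O-VHL replicate 1, limits precision at low counts, with 22 counts of PGF and 35 of ANGPTL4.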
